A study of Mus musculus with 6 samples.

Results

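The RNA of 10 immediate early genes was examined in IL-4-treated bone marrow-derived macrophages (BMDMs) that lacked or carried *Acly*, the gene of ATP citrate lyase, which makes acetyl-CoA from citrate in the cytosol. The genes were *Fos*, *Fosb*, *Jun*, *Junb*, *Egr1*, *Egr3*, *Ier2*, *Ier3*, *Btg2* and *Nr4a1*. They were taken by symbol, with earlier results of these data known, and each is represented by its most abundant transcript row, judged by the sum of its 6 counts. They are 10 of 24445 genes with a row in the count table. Of these 10, 9 were among the 12023 genes that passed the filter on low counts and were tested, and *Fosb* did not pass it.

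All libraries came from BMDMs of female mice whose bone marrow was cultured for 7 days with L929-conditioned medium, followed by 24 h with IL-4 at 100 U/mL. In the AclyM-KO group (3 libraries), Cre under *Lyz2* control deletes exon 9 of floxed *Acly* in C57Bl/6J mice. The Ctrl group (3 libraries, labelled WT) came from Acly fl/fl littermates without this deletion. Naive BMDMs were not analysed here, so the levels below are those at 24 h of IL-4 and say nothing of an early induction. The statistics section of the study calls the replicates biological and a figure legend calls them technical replicates of pooled mice, so p-values measure only the spread between these libraries. Whether fewer cells expressed a gene or each cell held less of its RNA cannot be told apart in bulk RNA.

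Immediate early genes are transcribed within minutes of a stimulus from factors already present in the cell, so that no new protein is needed. MAP kinases act on them through serum response factor (SRF) and its ternary complex factors, and other signals act through CREB and NF-kB. Many of the products are transcription factors that pass the signal on, such as the AP-1 proteins FOS and JUN, the EGR zinc finger proteins and the orphan nuclear receptor NR4A1. Their mRNAs are short-lived, and in macrophages they are best known from the first response to microbial products and growth factors.

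Of the 9 tested genes, 4 were lower in AclyM-KO at an edgeR adjusted p under 0.05, namely *Junb*, *Ier3*, *Egr1* and *Egr3*, and 0 were higher. Over all genes tested, 12.6% were lower and 12.4% were higher at this limit. *Egr1* and *Egr3* were also beyond the log2 fold change limit of 0.58 and are termed called lower, as were 2.57% of all genes tested, against 2.98% called higher. Log2 fold changes, given as AclyM-KO against Ctrl, were below 0 for all 9 tested genes, against 49.7% of all genes. The median was -0.35 over the 9 genes and 0.0014 over all genes tested. In 4 genes every AclyM-KO library lay below every Ctrl library (*Junb*, *Ier3*, *Egr3* and *Nr4a1*), as in 19.8% of all genes tested. Levels are given as CPM, read counts scaled to library size. An unadjusted p under 0.05 was seen for 5 of the 9 genes, *Nr4a1* being the addition. All 5 were lower, as were 18.5% of all genes tested at this unadjusted limit.

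**Figure D1:**
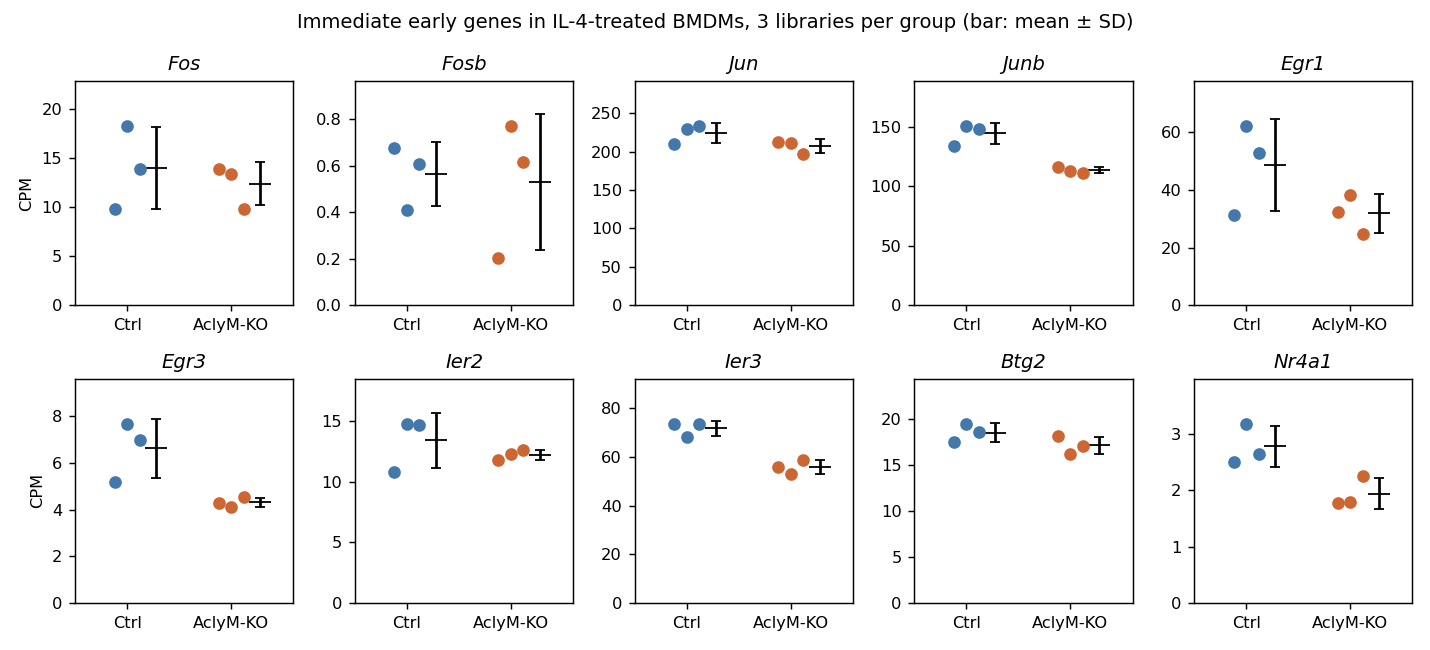
Library-scaled read counts (CPM, linear axis from 0 in each panel) of the 10 genes, with 1 point for each library and the mean ± SD beside each group (3 Ctrl libraries in blue, 3 AclyM-KO libraries in orange). The groups are apart for *Junb*, *Ier3*, *Egr3* and *Nr4a1* and overlap for the other genes.

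RefSeq promoters of GRCm38.p6, of which the 250 bases before the start site are used here, were at hand for 7 of the 10 genes, and none was used for *Egr1*, *Egr3* and *Ier2*. *Junb* and *Ier3* are shown because they passed the test, *Fos* because it is the classic gene of this kind and did not, and *Nr4a1* because of its repeated sites. Capitals mark the half-site of the CREB response element (TGACG, or CGTCA on the other strand), the TATA box (TATAAA) and matches to the NF-kB consensus. Each runs 5′ to 3′ on the strand of its gene, at chr8:84978749-84978998 on the minus strand for *Junb*, chr17:35821463-35821712 on the plus strand for *Ier3*, chr12:85473640-85473889 on the plus strand for *Fos* and chr15:101266596-101266845 on the plus strand for *Nr4a1*.
Junb: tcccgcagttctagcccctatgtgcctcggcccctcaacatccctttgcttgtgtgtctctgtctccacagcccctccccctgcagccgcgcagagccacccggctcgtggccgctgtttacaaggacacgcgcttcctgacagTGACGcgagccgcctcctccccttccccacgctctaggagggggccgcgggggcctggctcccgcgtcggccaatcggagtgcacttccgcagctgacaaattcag
Ier3: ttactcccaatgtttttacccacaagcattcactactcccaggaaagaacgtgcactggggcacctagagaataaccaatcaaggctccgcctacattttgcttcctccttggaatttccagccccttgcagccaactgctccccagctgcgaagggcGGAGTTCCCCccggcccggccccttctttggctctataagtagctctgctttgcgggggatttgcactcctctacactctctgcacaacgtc
Fos: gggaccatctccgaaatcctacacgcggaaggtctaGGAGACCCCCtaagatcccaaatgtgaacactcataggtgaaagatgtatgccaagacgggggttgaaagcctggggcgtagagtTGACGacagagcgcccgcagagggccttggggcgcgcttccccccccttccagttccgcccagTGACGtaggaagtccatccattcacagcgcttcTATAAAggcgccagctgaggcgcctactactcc
Nr4a1: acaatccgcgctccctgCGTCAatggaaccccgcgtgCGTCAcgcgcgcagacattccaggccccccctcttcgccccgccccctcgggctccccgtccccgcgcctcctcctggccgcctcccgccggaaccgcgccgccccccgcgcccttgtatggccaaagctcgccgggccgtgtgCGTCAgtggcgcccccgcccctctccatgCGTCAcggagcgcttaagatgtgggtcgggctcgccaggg

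Both strands were searched in all 32851 promoters of the same length, so that each share below is that of all promoters with the motif. Distances are to the RefSeq start, while the gene positions given further below are from another annotation, GENCODE. For *Ier3* and *Fosb* the window reaches into the gene as placed there. For *Junb* and *Btg2* it ends short of the gene. The CREB half-site was in 5 of the 7 genes (*Btg2*, *Fosb*, *Junb*, *Fos* and *Nr4a1*) and in 17.8% of promoters. *Nr4a1* held it 4 times and *Fos* 2 times, with 1 *Fos* match from 66 to 62 bases before the start. *Btg2* alone held the full palindrome TGACGTCA, from 166 to 159 bases before its start, as did 1.55% of promoters, and its half-site matches are those of this palindrome. *Fos* alone held TATAAA (12.4% of promoters), from 33 to 28 bases before the start. An NF-kB consensus match was in *Ier3* (92 to 83 bases before the start), *Fos* and *Fosb*, and in 7.25% of promoters. None of the 7 held the AP-1 site TGACTCA (4.46%), the EGR site GCGTGGGCG (0.536%), the CArG box bound by SRF (1.47%) or the STAT palindrome with 4 bases between its ends (5.85%) in this window. At such low shares a lack in 7 promoters says little, and sites further upstream were not searched. The SP1 site GGGCGG, which is not in capitals above, was in 6 of the 7, all but *Junb*, and in 32.7% of promoters. The GC content was 66.4% for *Junb*, 54.4% for *Ier3*, 58.4% for *Fos* and 74.4% for *Nr4a1*, with a median of 52.4% over all promoters.

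Among the AP-1 genes, *Junb* encodes a JUN protein that pairs with FOS proteins and differs from c-Jun in the genes it activates. It is a single-exon gene on the minus strand of chromosome 8, from 84976910 to 84978718. *Junb* had 134, 151 and 149 CPM in the 3 Ctrl libraries and 117, 113 and 112 CPM in the 3 AclyM-KO libraries. All AclyM-KO libraries were thus below all Ctrl libraries, and they lay close to each other. The mean fell from 145 ± 9.14 to 114 ± 2.64 CPM (SD, n = 3 each), to 78.7% of Ctrl. On the log2 scale this was a change of -0.35 (standard error 0.0547, 95% interval -0.46 to -0.23, edgeR adjusted p = 2.79e-04). It ranked 525 by p among all genes tested, and the interval does not reach the limit of 0.58. The two-sided p of an exact permutation test on CPM was 0.1, below which 3 against 3 libraries cannot go.

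*Jun*, which encodes c-Jun, is a single-exon gene on the minus strand of chromosome 4, from 95049034 to 95052222. It had 210, 230 and 234 CPM in Ctrl and 213, 212 and 197 CPM in AclyM-KO. The first Ctrl library lay within the AclyM-KO range, so the groups overlapped. The means were 225 ± 12.9 and 207 ± 9.17 CPM (SD, n = 3 each). For *Jun* this is a log2 fold change of -0.12 (standard error 0.0549, 95% interval -0.23 to 0.00098, edgeR adjusted p = 0.139). Without Ctrl replicate 1 it was -0.17 (edgeR adjusted p = 0.0433). The antisense gene *Junos* covers 232 bases, 7.28% of the exonic bases of *Jun*, so reads of both could be joined there if strand was not used in the counting. No other gene of the 10 shares exonic bases with another gene.

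*Fos*, which encodes the c-Fos partner of the JUN proteins, has 4 exons on the plus strand of chromosome 12, from 85473890 to 85477273. It had 9.86, 18.3 and 13.9 CPM in Ctrl and 13.9, 13.4 and 9.87 CPM in AclyM-KO. The lowest libraries of the groups had nearly the same level, and only Ctrl replicate 2 stood above the other group. The means were 14.0 ± 4.23 and 12.4 ± 2.21 CPM (SD, n = 3 each). This gave *Fos* a log2 fold change of -0.16 (standard error 0.181, 95% interval -0.54 to 0.22, edgeR adjusted p = 0.565). Without Ctrl replicate 2 the sign turned, to 0.07, and without Ctrl replicate 1 the value was -0.37, so its direction rested on single libraries. Its biological coefficient of variation was 0.138, where genes of its level had 0.0688. Only 0.433% of genes tested had a larger ratio of the former to the latter than the 2.00 of *Fos*.

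*Fosb*, which encodes another FOS protein, has 4 exons on the minus strand of chromosome 7, from 19302696 to 19310051. Its counts were 10, 5 and 8 in Ctrl and 3, 12 and 9 in AclyM-KO, which is 0.564 ± 0.139 and 0.531 ± 0.293 CPM (SD, n = 3 each). AclyM-KO held both the highest and the lowest library. At this depth no difference in *Fosb* was detectable (log2 fold change -0.10, edgeR adjusted p = 0.942, in a fit without the filter on low counts). DESeq2 gave -0.09 (adjusted p = 0.955). The p-values of the fit without the filter can differ much from those of the main fit, as for *Egr1* (edgeR adjusted p = 3.62e-14 against 0.0281).

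*Egr1* encodes a zinc finger factor that is among the first to appear after MAP kinase signals. It has 3 exons on the plus strand of chromosome 18, from 34861207 to 34864956. *Egr1* had 31.1, 62.2 and 52.6 CPM in Ctrl and 32.4, 38.2 and 24.8 CPM in AclyM-KO. Ctrl replicate 1 was as low as the AclyM-KO libraries, while the other Ctrl libraries were above all of these. The mean fell from 48.6 ± 15.9 to 31.8 ± 6.72 CPM (SD, n = 3 each), to 65.4% of Ctrl. The log2 fold change was -0.60 (standard error 0.186, 95% interval -0.99 to -0.20, edgeR adjusted p = 0.0281), with a two-sided exact permutation p of 0.3.

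The call of *Egr1* was not kept in every fit without 1 library, nor with every test. Its biological coefficient of variation was 0.154, where genes of its level had 0.0524, and 0.116% of genes tested had a larger ratio of these. Without Ctrl replicate 1 the log2 fold change was -0.85 (edgeR adjusted p = 1.31e-04). Without Ctrl replicate 2 it was -0.39 (edgeR adjusted p = 0.0763), without Ctrl replicate 3 -0.54 (edgeR adjusted p = 0.0908), and without AclyM-KO replicate 1 or 3 -0.61 and -0.45 (edgeR adjusted p = 0.0668 and 0.130). Without AclyM-KO replicate 2, the adjusted p stayed under 0.05. Without AclyM-KO replicate 1 the fold change hardly moved, while 2061 genes in all had an adjusted p under 0.05, against 2996 with all libraries. DESeq2 gave -0.61 (adjusted p = 0.217) and limma-voom -0.55 (adjusted p = 0.0519) with all libraries.

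*Egr3* encodes a related zinc finger factor and has 2 exons on the plus strand of chromosome 14, from 70077314 to 70082550. It had 77, 94 and 92 counts in Ctrl and 63, 64 and 66 counts in AclyM-KO, or 5.20, 7.69 and 6.98 CPM against 4.30, 4.12 and 4.52 CPM. The groups did not overlap, and the AclyM-KO libraries were again close to each other. The mean fell from 6.62 ± 1.28 to 4.31 ± 0.203 CPM (SD, n = 3 each), to 65.1% of Ctrl. The log2 fold change of *Egr3* was -0.61 (standard error 0.176, 95% interval -0.98 to -0.23, edgeR adjusted p = 0.0197), and DESeq2 gave an adjusted p of 0.0434. When 1 library was left out, the log2 fold change lay between -0.77 and -0.50. The adjusted p stayed under 0.05 without Ctrl replicate 1 or AclyM-KO replicate 3. It was 0.0653 without Ctrl replicate 2, 0.0616 without Ctrl replicate 3, and 0.0557 and 0.0734 without AclyM-KO replicates 1 and 2.

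*Ier3* encodes a small protein linked to cell survival and to the control of ERK and NF-kB signals. It has 2 exons on the plus strand of chromosome 17, from 35821684 to 35822923. *Ier3* had 73.8, 68.1 and 73.5 CPM in Ctrl and 56.1, 53.1 and 58.9 CPM in AclyM-KO. The lowest Ctrl library was above the highest AclyM-KO library, and both groups were tight. The mean fell from 71.8 ± 3.22 to 56.0 ± 2.89 CPM (SD, n = 3 each), to 78.0% of Ctrl. On the log2 scale *Ier3* changed by -0.36 (standard error 0.0579, 95% interval -0.48 to -0.24, edgeR adjusted p = 3.27e-04), and like *Junb* it did not reach the limit of 0.58. The adjusted p of both *Ier3* and *Junb* was under 0.05 in all 6 fits that left out 1 library, with log2 fold changes from -0.40 to -0.32 for each.

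*Ier2*, which encodes a nuclear protein, is a single-exon gene on the minus strand of chromosome 8, from 84661331 to 84662852. It had 10.8, 14.8 and 14.6 CPM in Ctrl and 11.8, 12.3 and 12.6 CPM in AclyM-KO. Ctrl replicate 1 was lowest of all libraries and the other Ctrl libraries were highest. For *Ier2* the log2 fold change was -0.13 (standard error 0.125, 95% interval -0.39 to 0.14, edgeR adjusted p = 0.507). *Btg2* encodes an antiproliferative protein that also binds the CCR4-NOT deadenylase, and it has 2 exons on the minus strand of chromosome 1, from 134075170 to 134079120. It had 17.5, 19.5 and 18.7 CPM in Ctrl and 18.1, 16.2 and 17.1 CPM in AclyM-KO, with overlap between the groups. The value for *Btg2* was -0.11 on the log2 scale (standard error 0.0910, 95% interval -0.31 to 0.08, edgeR adjusted p = 0.407). These p-values do not show equal levels, but the 95% intervals of *Ier2*, *Btg2*, *Jun* and *Fos* lie within 0.58 in either direction.

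*Nr4a1* encodes the orphan nuclear receptor also known as NUR77 and has 7 exons on the plus strand of chromosome 15, from 101266846 to 101274795. Its counts were 37, 39 and 35 in Ctrl and 26, 28 and 33 in AclyM-KO, or 2.50, 3.19 and 2.66 CPM against 1.77, 1.80 and 2.26 CPM. The groups did not overlap, but the counts were low. The means were 2.78 ± 0.362 and 1.95 ± 0.274 CPM (SD, n = 3 each). The log2 fold change of *Nr4a1* was -0.51 (standard error 0.236, 95% interval -1.01 to -0.0076), with an unadjusted p of 0.0470 and an edgeR adjusted p of 0.130. The interval reaches from beyond that of *Egr3* to almost 0, and no fit without 1 library gave an adjusted p under 0.05.

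**Figure D2:**
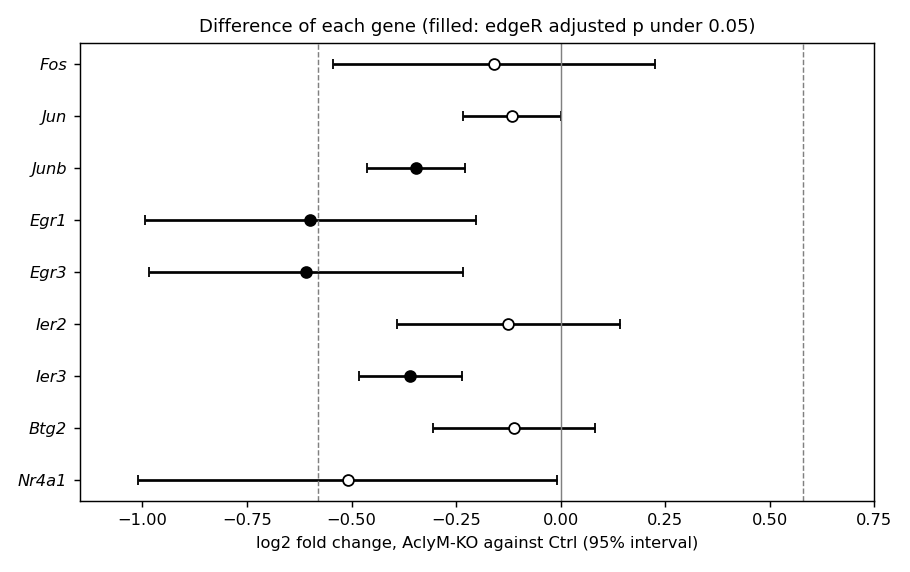
Log2 fold change of the 9 tested genes (horizontal axis, AclyM-KO against Ctrl) with its 95% interval from edgeR. Filled points had an adjusted p under 0.05, dashed lines mark 0.58 in either direction, and the intervals of *Egr1*, *Egr3* and *Nr4a1* are the widest beside that of *Fos*.

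**Figure D3:**
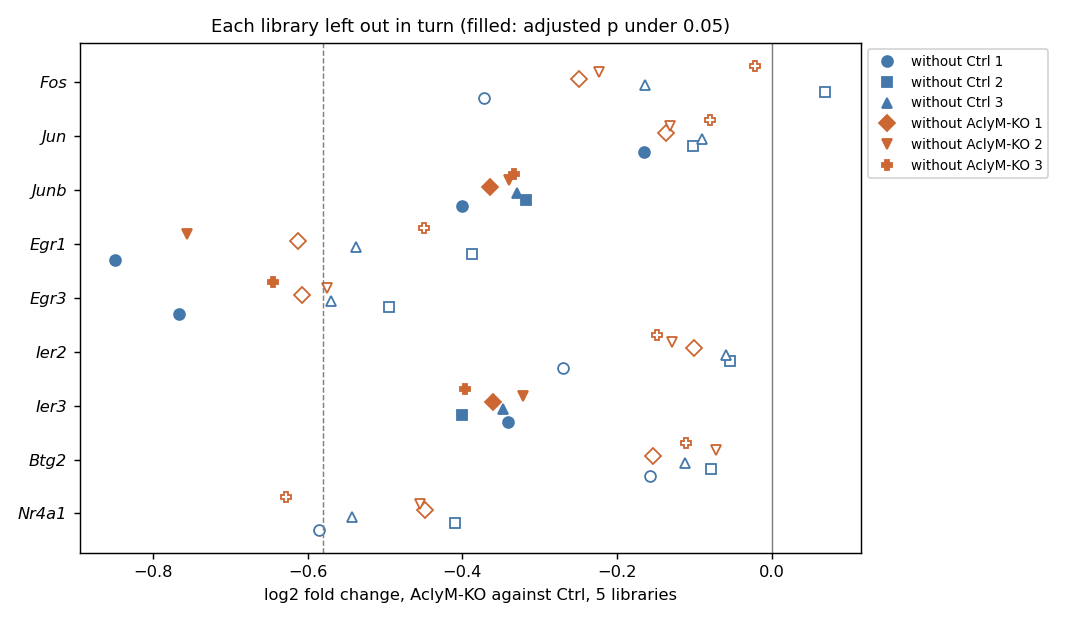
Log2 fold change of the 9 tested genes (horizontal axis) when each of the 6 libraries is left out in turn, with 1 symbol for each library left out and filled symbols for an adjusted p under 0.05. *Junb* and *Ier3* are filled in all 6 fits, *Egr1* and *Egr3* in 2 fits each, *Jun* in 1, and *Fos* crosses 0 without Ctrl replicate 2.

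Per length, the 10 genes spanned a wide range of levels in these cells. In Ctrl, *Junb* had 79.9 CPM per kilobase, *Jun* 70.4 and *Ier3* 63.5, followed by *Egr1* with 16.0. *Ier2* (8.82), *Btg2* (6.77) and *Fos* (6.65) came next, then *Egr3* with 1.68, *Nr4a1* with 1.12 and *Fosb* with 0.149 CPM per kilobase. Neighbours in this order overlapped between Ctrl libraries for *Ier2* with *Btg2* and for *Btg2* with *Fos*. In AclyM-KO the level per length was 62.8 for *Junb* and 65.0 for *Jun*, and their libraries overlapped, as did those of *Egr1* (10.5) with *Ier2* (8.04) and of *Btg2* (6.26) with *Fos* (5.89). The *Egr3* level depends on the transcript taken, since its 3 rows belong to transcripts of different length, and was 4.39 CPM per kilobase in Ctrl with the shortest.

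Within the JUN family, which pairs with FOS proteins in AP-1, the 3 genes had similar levels per length. *Junb* made up 33.1 ± 0.907% of the family's CPM per kilobase in Ctrl and 30.5 ± 0.503% in AclyM-KO (SD, n = 3 each). The share of *Jun* was 29.2 ± 0.321% in Ctrl and 31.6 ± 1.01% in AclyM-KO. Both shares were apart between the groups, by -2.56 points for *Junb* and 2.40 points for *Jun* (two-sided exact permutation p = 0.1 for each, the smallest possible). Shares within a family depend on each other, so these are not separate results, and the level of *Jun* itself did not rise (log2 fold change -0.12). *Jund*, which is usually present in resting cells, had 37.7% and 37.9%. The family total was 226, 244 and 254 CPM per kilobase in Ctrl and 207, 207 and 203 in AclyM-KO, so it was lower in every AclyM-KO library.

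In the FOS family, *Fosl2*, the gene of FRA-2, made up most of the level per length, with 78.8% in Ctrl and 77.3% in AclyM-KO. *Fos* held 19.6 ± 3.02% in Ctrl and 20.4 ± 2.69% in AclyM-KO (SD, n = 3 each, two-sided exact permutation p = 0.9). *Egr2*, a zinc finger factor known as an IL-4-responsive gene in macrophages, dominated the EGR family likewise, with 75.5% in Ctrl and 76.9% in AclyM-KO. *Egr1* held 22.2% and 20.9%, and *Egr3* 2.35% and 2.21%. These EGR values use an *Egr3* transcript of 3940 bases. With its shortest, of 1509 bases, the share of *Egr3* would be higher and the others lower, which was not computed. The EGR total was 61.4, 79.6 and 72.2 CPM per kilobase in Ctrl and 51.9, 52.3 and 45.3 in AclyM-KO, with no overlap, while the shares of its members overlapped.

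Levels of the 9 tested genes also differed between libraries of 1 group. On the log2 CPM scale, their mean, set to 0 over the 6 libraries, was -0.07, 0.33 and 0.22 in Ctrl and -0.13, -0.14 and -0.20 in AclyM-KO. Ctrl replicate 1 thus lay between the other Ctrl libraries and the AclyM-KO libraries. The root mean square deviation from the group mean over these genes was 0.296 in Ctrl replicate 1 and 0.232 in Ctrl replicate 2, and 0.08 to 0.17 in the other libraries. Over the 8412 genes of at least 10 CPM, which leave out *Egr3* and *Nr4a1*, it was 0.0725 to 0.109, with 0.0953 in Ctrl replicate 1. The spread of that library was thus not the largest there, but its size does not show whether genes shifted in the same direction. Among genes chosen after their values were seen, *Flna* had the order of this mean in Ctrl (1082, 1477 and 1263 CPM). *Chil3* had the reverse (465, 343 and 436 CPM). How many genes share this order was not computed.

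Of the 36 pairs of tested genes, 35 had a Pearson r above 0 over the 6 libraries, with a median of 0.73. After the group means were taken out, 27 pairs were above 0 and 10 were above 0.8, with a median of 0.62. *Fos* and *Egr1* had an r of 0.95 in these deviations, and *Junb* and *Egr3* 0.89. *Ier3* went the other way, with -0.80 against *Fos* and -0.79 against *Egr1*, and its high level in Ctrl replicate 1 is where the others were low. These values are descriptions of 6 libraries that share their scaling, and they carry no test. Pairs of other genes were not counted, so the values do not show that these genes vary together more than others do.

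**Figure D4:**
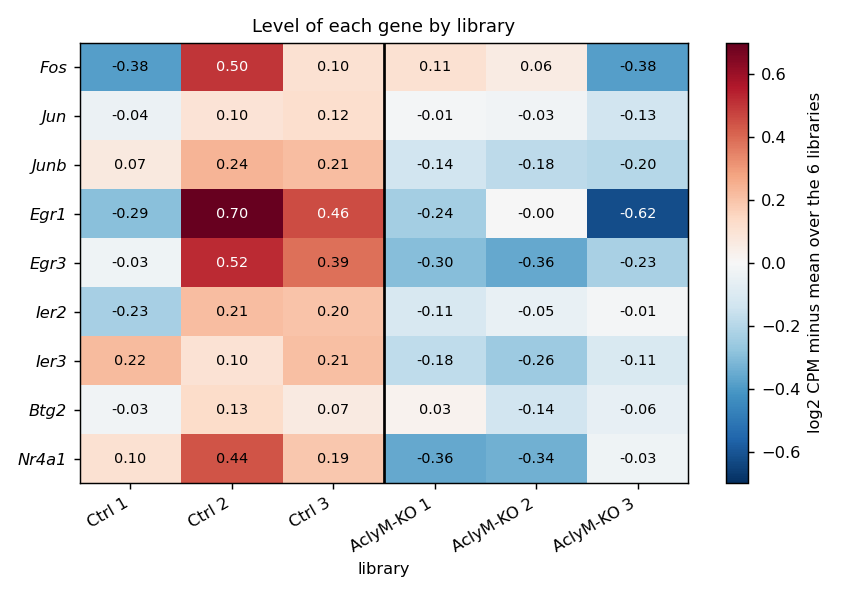
Log2 CPM of each tested gene (rows) in each library (columns) minus its mean over the 6 libraries, in colour and as a number, with a line between Ctrl and AclyM-KO. All genes but *Jun* and *Ier3* are lowest of the Ctrl libraries in replicate 1 and highest in replicate 2. *Jun* is lowest in replicate 1 and highest in replicate 3. *Ier3* is highest in replicate 1, nearly level with replicate 3, and lowest in replicate 2.

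The 5 other genes of at least 10 CPM whose log2 CPM followed the mean of the 9 genes most closely over the 6 libraries were *Tpm4* (r = 0.997), *Fosl2* (0.993), *Mideas* (0.993), *Rin2* (0.991) and *Fzd7* (0.989). *Tpm4* encodes a tropomyosin of the actin cytoskeleton and had 170, 208 and 199 CPM in Ctrl and 164, 165 and 162 CPM in AclyM-KO. *Fosl2* had 150, 190 and 176 CPM in Ctrl and 149, 143 and 143 CPM in AclyM-KO. Both were lowest of the Ctrl libraries in replicate 1, as was the mean of the 9 genes, which follows from how they were chosen. *Ier3* itself was highest of the Ctrl libraries there. A high r is likely in a search of many genes over 6 libraries, so these values carry no test. On deviations from the group means alone, the closest were *Naa25*, *Ptpn23*, *Mideas*, *Atf1* and *Mtss1* (r from 0.995 to 0.997), of which only *Mideas* is shared with the first 5.

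Genes of the same families and of the pathways around them were compared in the same fit. Of the 13 other AP-1 family genes tested, 4 fell and 2 rose at an adjusted p under 0.05, with a median of -0.01. The genes that fell were *Batf3* (-0.57), *Maff* (-0.56), *Fosl2* (-0.24) and *Jund* (-0.22), and *Mafg* (0.38) and *Mafk* (0.21) rose on the log2 scale. Of the other EGR, NAB and NR4A genes 5 of 6 were tested, and 2 fell and 1 rose (median -0.16). *Egr2* fell from 158 ± 10.8 to 114 ± 6.26 CPM (SD, n = 3 each, log2 fold change -0.48, edgeR adjusted p = 3.39e-05). The genes of the EGR corepressors NAB1 and NAB2 went opposite ways, at 0.38 and -0.17. *Nr4a2* (-0.06, edgeR adjusted p = 0.921) and *Nr4a3* (-0.16, edgeR adjusted p = 0.784) had about 1 CPM, and no difference was detectable at this depth. *Egr4* had 0 counts in all libraries.

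A wider list held 41 other immediate early genes, some of which are also on the lists above or below. Of 37 tested, 11 fell and 6 rose, and the median was -0.03. Those called were *Zfp36l1* (-0.59) and *Dusp5* (-0.78), which fell, and *Gadd45a* (0.65), which rose from 65.6 ± 5.20 to 103 ± 2.35 CPM (SD, n = 3 each, edgeR adjusted p = 1.23e-06). *Zfp36l1* encodes a protein that binds AU-rich mRNA, *Dusp5* a nuclear ERK phosphatase, and *Gadd45a* a stress and growth arrest protein. The other genes that fell were *Maff* (-0.56), *Id2* (-0.52), *Egr2* (-0.48), *Dusp6* (-0.44), *Cebpd* (-0.42), *Bhlhe40* (-0.33), *Tnfaip3* (-0.31), *Ppp1r15a* (-0.25) and *Gadd45b* (-0.21). The others that rose were *Klf4* (0.48), *Klf2* (0.41), *Klf6* (0.33) and *Klf10* (0.19), genes of Kruppel-like factors, and *Zfp36* (0.37). *Atf3* (0.09), *Myc* (0.05), *Ier5* (0.03) and *Dusp1* (0.28) had edgeR adjusted p-values of 0.172, 0.686, 0.798 and 0.0718. Genes of these lists that are given beyond the called ones, or beyond the 2 with the lowest p where none was called, were chosen after their values were seen.

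**Figure D5:**
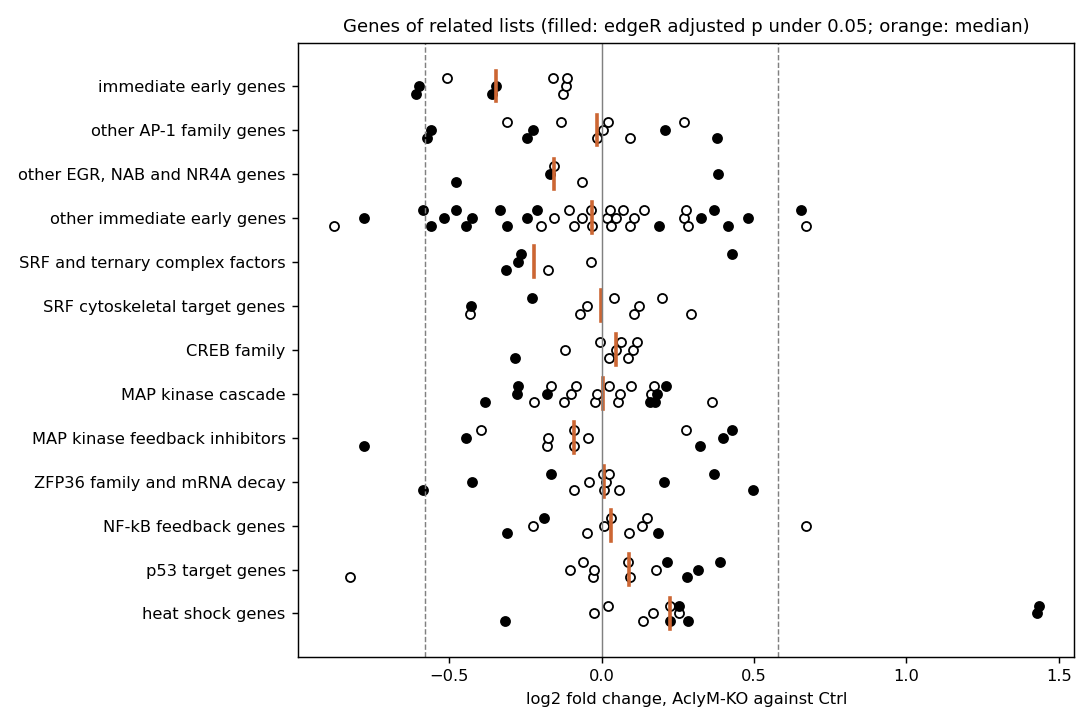
Log2 fold change (horizontal axis) of each tested gene of the 9 immediate early genes and of 12 related lists, with 1 point for each gene, filled at an edgeR adjusted p under 0.05, and the median of each list in orange. Dashed lines mark 0.58 in either direction. The median of the immediate early genes is -0.35 and those of the other lists lie between -0.22 and 0.22.

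Among the upstream factors, 3 of 6 SRF and ternary complex factor genes fell and 1 rose (median -0.22). *Srf* itself had 43.4 ± 3.93 and 42.4 ± 3.83 CPM (SD, n = 3 each, log2 fold change -0.04, edgeR adjusted p = 0.785). *Mrtfa*, the gene of an actin-sensing SRF coactivator, fell (-0.31) and *Elk4* rose (0.43). Of 10 tested cytoskeletal SRF target genes, 2 fell (*Zyx* -0.43 and *Tpm4* -0.23) and 0 rose (median -0.0034). Among 9 genes of the CREB family and its coactivators 1 fell (*Crtc2*, -0.28) and 0 rose (median 0.05). *Ep300* was next by p at -0.12 (edgeR adjusted p = 0.220). Both encode coactivators, and the factor genes *Creb1*, *Atf1*, *Crem* and *Atf2* did not pass. In the MAP kinase cascade 4 of 22 fell and 4 rose (median 0.0046), with *Mapk3*, the gene of ERK1, at -0.38 (edgeR adjusted p = 6.36e-05) and *Map3k1* at -0.27 (edgeR adjusted p = 0.00168). Of 12 tested feedback inhibitors of MAP kinases, 2 fell, including *Dusp5*, and 3 rose (median -0.09).

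In the list of ZFP36 proteins and mRNA decay factors, which act on short-lived mRNAs such as those of immediate early genes, 3 of 13 tested genes fell and 3 rose (median 0.0094). *Zfp36l1* fell from 185 ± 7.60 to 123 ± 5.80 CPM and *Zfp36* rose from 168 ± 5.79 to 217 ± 7.40 CPM (SD, n = 3 each). Of 11 genes of NF-kB and its feedback, 2 fell (*Tnfaip3* -0.31 and *Nfkb1* -0.19) and 1 rose (median 0.03). No p53 target gene of 12 fell and 4 rose (median 0.09), including *Sesn2* (0.39) and *Bax* (0.28), while *Btg2*, which p53 also activates, was at -0.11. Of 12 tested heat shock genes 1 fell and 5 rose (median 0.22). Those called were *Hspa1a* (1.43) and *Hspa1b* (1.44), at 1.67 and 0.878 CPM in Ctrl. These are near-identical copies, so their split is uncertain.

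The labels and the cell type were checked in the same libraries, at 12151975 to 15587283 counts per library. *Acly* fell to 41.4% of Ctrl (log2 fold change -1.27, edgeR adjusted p = 5.22e-10), in counts over the whole transcript, most of which lies outside the deleted exon. Of 8 macrophage markers all were present, with summed levels of 13399 to 14710 CPM in Ctrl and 11088 to 11539 CPM in AclyM-KO, and *Lyz2*, whose locus drives the Cre, fell (log2 fold change -0.67), as did *Mertk* (-0.73), *Itgam* (-0.28) and *Csf1r* (-0.20), while *Adgre1* rose (0.33). Of 5 IL-4 response genes 2 fell, *Arg1* (log2 fold change -1.92) and *Mgl2* (-0.59). Neutrophil markers summed to 17.1 to 19.3 CPM in Ctrl and 24.9 to 26.7 CPM in AclyM-KO, where 2 of 4 tested (of 10) rose, *S100a8* (0.85) and *S100a9* (0.59), while *Ly6g* had 1 and 0 counts over the groups. Mast cell and basophil markers summed to 2.97 to 5.24 and 7.67 to 9.07 CPM, with *Kit* (1.26) the only one tested of 6 and *Mcpt8*, *Fcer1a* and *Prss34* at 0. Dendritic cell markers summed to 9.26 to 12.1 and 9.80 to 11.1 CPM, with *Cd209a* (1.65) called of 3 tested of 8. Lymphocyte (0.228 to 0.743 and 0.546 to 0.685), stromal (0.379 to 1.47 and 1.23 to 2.33) and erythroid markers (0.338 to 0.818 and 0.386 to 1.02 CPM) had no gene that passed the filter. The part of these markers in the levels of the immediate early genes was not tested.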

How the data were processed

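Poly(A) RNA of 3 Ctrl and 3 AclyM-KO libraries was sequenced by the authors, who aligned the reads to mm10 with STAR (2.5.2b in the submitters' processing notes, which also list CASAVA 1.8.2) and deposited raw read counts per RefSeq transcript. The counter is not given in the sources used here. Of 35745 rows, 35440 were paired with a symbol through RefSeq and 188 through GENCODE M21, and 117 rows without a gene (0.37% to 1.38% of counts) were left out. All 6 count columns were used. The row with the highest total was kept for each gene. Totals per library on these rows were 12151975 to 14739689 in Ctrl and 14745614 to 15587283 in AclyM-KO.

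The quasi-likelihood test of edgeR 4.0.16 (R 4.3.3; glmQLFit and glmQLFTest) was applied to the counts after filterByExpr and TMM scaling, with genotype as the sole term and Benjamini-Hochberg adjustment over 12023 genes. Genes are termed called at an adjusted p under 0.05 and a log2 fold change beyond 0.58. CPM are counts scaled to a common library size by TMM, and levels per kilobase use the length of the annotated transcript. Permutation tests on CPM are exact (scipy 1.17.1). Chi-square values per gene of 2.32 to 7.47 in pairs of libraries of 1 group showed that none was deposited in duplicate. On simulated data, 94.4% of 198 genes changed by 1 on the log2 scale were recovered among 11945 at an adjusted p under 0.05. At this limit alone 7 unchanged genes passed, and 94.7% of intervals held the true value. The simulation gave each gene the coefficient of variation usual for its level, while *Fos* and *Egr1* had 2.00 and 2.93 times that value. The 9 tested genes also changed by less than 1, so these rates do not carry over to them. DESeq2 1.42.0, limma-voom (limma 3.58.1), glmTreat, other scalings, filters and rows, a replicate term, thinning and leaving out each library were alternatives. The genes and the 12 related and 8 marker lists were chosen with earlier results of these data known. The text names the 10 genes, in each list with tested genes the called ones (up to 4) or, where none was called, the 2 with the lowest p, the most alike genes, and others marked as chosen after their values were seen. Gene positions follow GENCODE M21 (GRCm38), and promoters RefSeq (GRCm38.p6). Not every gene of the related lists is reported here.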

Additional observations from a re-analysis of the deposited data

How the results depend on the processing

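The numbers of genes past the limits, over all genes and over the immediate early genes, and the fold changes of the 9 tested genes were recomputed under 16 alternatives, and the shares of *Jun* and *Fos* in their families under 7. The counts and values of the related and marker lists were not recomputed. The number of immediate early genes called lower was 2 and became 1 with DESeq2, 1 with limma-voom and 0 with glmTreat, which tests against the limit of 0.58 itself, and it lay between 0 and 2 in the fits that left out 1 library. In each of the 16 alternatives 0 were called higher. The number with an adjusted p under 0.05 was 4 and became 3 with DESeq2, 3 with limma-voom and 0 with glmTreat. It ranged from 2 to 5 without 1 library. *Egr1* was the gene lost with DESeq2 and with limma-voom. Over all genes, glmTreat gave 41 called lower and 77 called higher, or 118 in all, against 309 and 358, and 1974 to 3060 genes had an adjusted p under 0.05 without 1 library, against 2996 with all. *Junb* and *Ier3* had an adjusted p under 0.05 in all alternatives but glmTreat. *Fos* ranged from -0.37 to 0.069 with 1 library left out, its sign being reversed without Ctrl replicate 2. Of the 5 genes most like the mean, 1 remained on deviations from group means. Over all genes tested, the deviations of same-numbered libraries had correlations of -0.07, 0.05 and -0.03. These show no pairing by replicate number but cannot exclude it, since counting noise in genes of low count brings such correlations towards 0. With a replicate block, 2644 genes had an adjusted p under 0.05, and 2 immediate early genes were called lower (*Egr1* -0.58, *Egr3* -0.61). Counts under 100 per library limit what *Egr3*, *Nr4a1* and *Fosb* can show, while *Fos* and *Egr1* are limited by the spread between libraries.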
